A study of Mus musculus with 12 samples.

Results

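The activating transcription factor 4 (ATF4) amino-acid response and the unfolded protein response of the endoplasmic reticulum (ER) were followed in PUER cells on 12 one-colour arrays. The set of genes was defined by gene symbol: 21 genes of the ATF4 response and of serine and folate metabolism, and 13 genes of the ER response, 34 in all. Of these, 32 symbols (20 and 12) stood in the gene name field of the scanner output, on 55 probes, out of 27962 names and 41174 non-control probes on the array. The other 2, Ppp1r15a and Sel1l, are carried under older names and are described apart. Of the 32 members, 26 passed the filters and were tested among 15061 genes, 16 of the ATF4 class and 10 of the ER class. Atf4, Atf5, Nupr1, Creld2 and Herpud1 had too many spots that carry an outlier mark of the scan software, and Vldlr was not well above background on any of its 12 arrays.

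PUER is a mouse myeloid progenitor line derived from cells that lack the transcription factor PU.1, and it grows in interleukin 3 (IL-3). All 4 groups carry PU.1 fused to an estrogen receptor domain, which 4-hydroxytamoxifen (4-OHT) activates, and all carry a retroviral vector and were sorted on GFP. The groups were Hnrnpa0 shRNA cells after 24 h in 2 nM 4-OHT, Hnrnpa0 shRNA cells before 4-OHT, control vector cells after 24 h in 2 nM 4-OHT, and control vector cells before 4-OHT, with 3 arrays each (replicates A, B and C). The design names separate clones for the replicates of a vector and a single shRNA. The protocol mentions vehicle, but no array is labelled as vehicle-treated, so time in culture and 4-OHT cannot be told apart.

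ATF4 is a transcription factor whose mRNA is translated when a kinase phosphorylates the initiation factor eIF2α, for example when amino acids run short or unfolded proteins build up in the ER. It then switches on amino-acid transporters, enzymes that make asparagine, serine, glycine and cysteine, the feedback protein TRIB3 and the enzyme CHAC1. The ER has its own sensors besides: IRE1 splices Xbp1 mRNA, and cleaved ATF6 enters the nucleus, and these factors raise chaperones, disulfide isomerases and the machinery that extracts misfolded proteins for degradation. Array probes read mRNA abundance only, and neither translation of Atf4 nor splicing of Xbp1 is measured by them.

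The DNA elements through which these factors are known to act differ between the 2 classes, and a few are shown as examples of the letters searched for. RefSeq promoter windows (GRCm38.p6, 250 bases before to 50 bases after each annotated start) were found for 29 of the 32 members. The core of the amino-acid response element, searched as TGATGNAA on both strands, was present for 6 of 17 ATF4-class genes (35.3%) and for 1 of 12 ER genes, against 4.51% of the 27025 genes with a window. The matches printed here are those of members called lower after 4-OHT, so they were chosen by expression, and those of Nupr1, Vldlr and Herpud1 are not printed. Each is given on the strand of its gene with the match in capitals. They lie at chr6:7693214-7693243 (Asns, minus strand), chr2:119351038-119351067 (Chac1, plus strand), chr3:50443661-50443690 and chr3:50443642-50443671 (Slc7a11, minus strand) and chr2:152344028-152344057 (Trib3, minus strand, downstream of the start).
Asns: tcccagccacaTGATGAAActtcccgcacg
Chac1: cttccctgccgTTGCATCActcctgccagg
Slc7a11: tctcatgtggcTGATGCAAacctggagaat
Slc7a11: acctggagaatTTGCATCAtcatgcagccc
Trib3: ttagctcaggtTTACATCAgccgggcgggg

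The ER stress element, searched on both strands as CCAAT and CCACG with any 9 bases between them, was present for 6 of 12 ER genes (Calr, Creld2, Dnajc3, Hsp90b1, Hspa5 and Pdia6) and for none of the 17 ATF4-class genes, against 0.137% of all genes with a window. The shorter element II, searched as ATTGG and CCACG with any 1 base between them, was found for Herpud1 and for 0.0444% of all genes. The core TGACGTGG matched no member and 0.714% of all genes. Printed below are the elements of Hspa5 at chr2:34772014-34772054 (plus strand), Calr at chr8:84847064-84847104 (minus strand) and Herpud1 at chr8:94386366-94386398 (plus strand), as an example with saturated spots, an example called lower and the example of element II. A match is a description of the letters in the window and not an established binding site.
Hspa5: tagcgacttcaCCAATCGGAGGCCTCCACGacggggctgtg
Calr: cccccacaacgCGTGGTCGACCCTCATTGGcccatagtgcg
Herpud1: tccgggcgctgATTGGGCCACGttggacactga

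**Figure D1:**
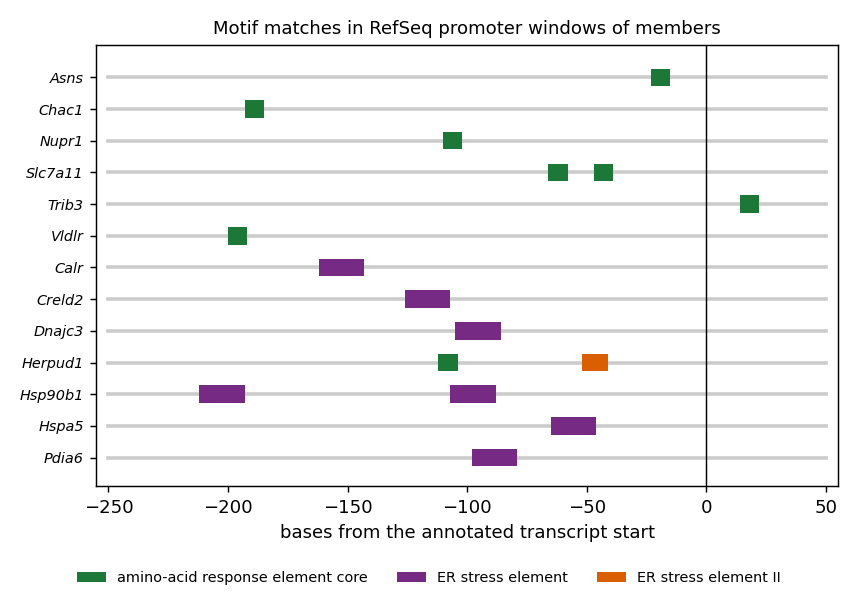
Motif matches in the promoter windows of the members that hold one, as distance in bases from the annotated transcript start (grey line: the window searched). Amino-acid response element cores (green) are in 6 ATF4-class genes and in Herpud1, ER stress elements (purple) in 6 ER genes, and element II (orange) in Herpud1.

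Across the series, arrays of a group correlated with r between 0.990 and 0.995 over genes, and 50.3% to 55.7% of the spots of an array were well above background. Hnrnpa0 read 0.56, 0.65 and 0.46 on the log2 scale in shRNA cells after 4-OHT, against 2.60, 2.63 and 2.73 in control cells after 4-OHT. Before 4-OHT it read 1.93, 1.57 and 1.00 in shRNA cells, against 3.11, 3.06 and 2.98 in control cells, so that 23.3% (after) and 34.3% (before) of the control level was left, with adjusted p = 0.00511 and 0.0127 by limma. The 12 arrays lie on 3 slides: slide 1 has 4 control arrays (replicate A after 4-OHT, and all 3 before it), slide 3 has 4 shRNA arrays (all 3 after 4-OHT, and replicate C before it), and slide 2 has the rest. The vectors therefore share no slide within a treatment, and with slide as a term the Hnrnpa0 difference was -1.38 (adjusted p = 0.0897) after 4-OHT and -1.38 (adjusted p = 0.114) before it. shRNA replicate C before 4-OHT, the only array of its group on slide 3, stands apart on the second principal component (-28.8, against -3.70 and -11.1 for A and B).

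After 4-OHT, most tested mRNAs of the ATF4 response and of serine and folate metabolism were lower, and none passed as higher. Over both classes, 16 of 26 tested members passed in shRNA cells, against 38.3% of all genes, and 15 of 26 in control cells, against 40.5%. In shRNA cells 12 of 16 tested genes passed as lower, where 21.8% of all 15061 genes did so, and in control cells the same 12 passed, against 23% of all genes. The median log2 change over the 16 was -0.52 in shRNA cells and -0.56 in control cells, beside -0.08 and -0.07 over all genes. The 12 span stress-response genes (Trib3, Chac1, Sesn2), amino-acid enzymes (Asns, Cth, Psph), mitochondrial folate enzymes (Aldh1l2, Shmt2, Mthfd2) and transporters (Slc7a11, Slc7a5, Slc3a2). The changes in both vectors are taken from separate arrays. A single fit of all 12 arrays gives them a common spread, so their tests are not independent. Levels below are log2 values relative to the 75th percentile of the array, given for replicates A, B and C in that order, adjusted p is limma's with Benjamini-Hochberg adjustment over 15061 genes, and the threshold is 0.05.

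**Figure D2:**
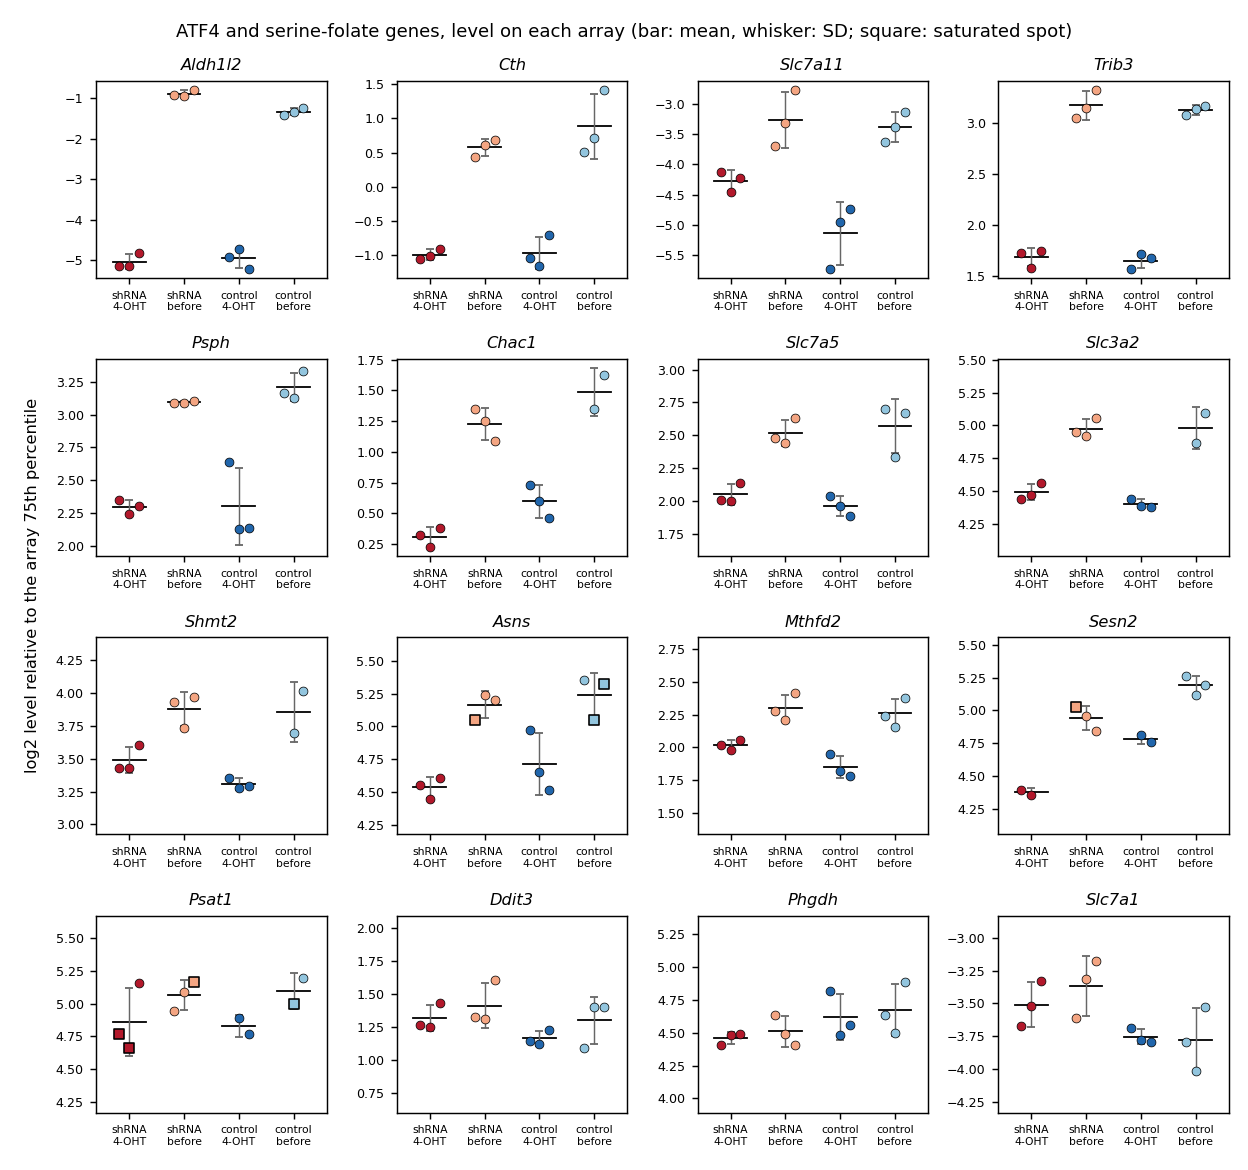
Level of the 16 tested ATF4 and serine-folate genes on each of the 12 arrays (points; log2 relative to the array's 75th percentile, with a y axis of its own per gene), with group mean and SD and saturated spots as squares. In the 12 genes from Aldh1l2 to Sesn2, all arrays after 4-OHT lie below all arrays before it within each vector.

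Among the regulators, Trib3 encodes a pseudokinase that feeds back on ATF4. It read 1.72, 1.58 and 1.74 in shRNA cells after 4-OHT, against 3.04, 3.14 and 3.32 before it, and 1.56, 1.71 and 1.67 in control cells after 4-OHT, against 3.07, 3.14 and 3.16 before it. All arrays after 4-OHT lie well under all arrays before it, with little spread in any group. The log2 change was -1.49 ± 0.08 (SE, adjusted p = 2.37e-07) in shRNA cells and -1.48 ± 0.08 (SE, adjusted p = 2.05e-07) in control cells, 2.81-fold and 2.78-fold lower. Its probe lies on chromosome 2 at 152078476 to 152078535 (mm7, minus strand).

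Chac1, which encodes an enzyme that degrades glutathione, read 0.32, 0.22 and 0.38 in shRNA cells after 4-OHT, against 1.35, 1.25 and 1.09 before it. In control cells it read 0.73, 0.60 and 0.46 after 4-OHT, against 1.35 and 1.62 on the 2 arrays before it with a value. The groups do not overlap in either vector, and the change was -0.92 ± 0.11 (SE, adjusted p = 9.75e-05) in shRNA cells and -0.89 ± 0.12 (SE, adjusted p = 0.000238) in control cells. Sesn2, a leucine-sensing inhibitor of mTORC1, read 4.40 and 4.36 on the 2 shRNA arrays after 4-OHT with a value, against 5.02, 4.96 and 4.84 before it, and 4.81 and 4.76 on 2 control arrays after 4-OHT, against 5.26, 5.12 and 5.19 before it. The change was -0.56 ± 0.08 (SE, adjusted p = 0.000657) in shRNA cells and -0.41 ± 0.08 (SE, adjusted p = 0.00374) in control cells. A second Sesn2 probe gave -0.15 (adjusted p = 0.332) in shRNA cells and -0.21 (adjusted p = 0.177) in control cells when it was tested in place of the first. The Sesn2 call was also lost in shRNA cells with the mean of all probes (-0.25, adjusted p = 0.119). In control cells it was lost with quantile normalization (-0.27, adjusted p = 0.109).

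Ddit3, which encodes the stress factor CHOP, did not pass in either vector. It read 1.26, 1.25 and 1.43 in shRNA cells after 4-OHT, against 1.33, 1.31 and 1.61 before it, and 1.14, 1.12 and 1.23 in control cells after 4-OHT, against 1.09, 1.40 and 1.40 before it. The groups overlap in both vectors, and the change was -0.10 ± 0.11 (SE, adjusted p = 0.505) in shRNA cells and -0.14 ± 0.11 (SE, adjusted p = 0.367) in control cells, with 95% intervals of -0.34 to 0.15 and -0.38 to 0.11. The size of the Trib3 fall lies outside these intervals.

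Atf4 itself could be read only with the spots that the scanner software marked as non-uniform or as outliers, on 5 of its 12 arrays. With these kept, an alternative added after seeing the data and run over 15354 genes, it read 2.55, 2.53 and 2.71 in shRNA cells after 4-OHT, against 2.88, 2.86 and 3.26 before it. In control cells it read 2.25, 2.26 and 2.25 after 4-OHT, against 2.95, 2.93 and 3.01 before it. The groups do not overlap in either vector, and the change was -0.40 ± 0.10 (SE, adjusted p = 0.0103) in shRNA cells and -0.71 ± 0.10 (SE, adjusted p = 0.000265) in control cells. Herpud1 (4 marked arrays), Nupr1 (8) and Atf5 (11) are also read only this way. Nupr1, a small stress-induced chromatin protein, differed by 0.15 ± 0.08 (SE, adjusted p = 0.193) in shRNA cells and rose by 0.43 ± 0.08 (SE, adjusted p = 0.00222) in control cells, the single member of the ATF4 class called as higher. Every control array before 4-OHT and every shRNA array after it was marked for Nupr1, so both changes rest on a group without an unmarked value. Atf5, a related leucine zipper factor, differed by 0.01 (adjusted p = 0.959) in shRNA cells and 0.08 (adjusted p = 0.599) in control cells. With marked spots kept, 13 of 19 ATF4-class genes passed as lower in each vector, where 22.2% of all genes did so in shRNA cells and 23.1% in control cells.

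Ppp1r15a encodes GADD34, the phosphatase subunit that reverses eIF2α phosphorylation, and is printed on the array under the older name Myd116. Its log2 change was -1.40 ± 0.08 (SE, adjusted p = 2.77e-07) in shRNA cells and -1.28 ± 0.08 (SE, adjusted p = 4.42e-07) in control cells, 2.64-fold and 2.42-fold lower. Vldlr, which encodes a lipoprotein receptor, was not well above background on any array with either of its 2 probes, so only an upper bound on its signal exists and it has no fold.

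Among the enzymes of amino-acid synthesis, Cth makes cysteine from cystathionine. It read -1.06, -1.02 and -0.91 in shRNA cells after 4-OHT, against 0.44, 0.60 and 0.69 before it, and -1.04, -1.16 and -0.71 in control cells after 4-OHT, against 0.51, 0.72 and 1.42 before it. Control replicate C is the highest of its group on both sides of the treatment, and the groups stay apart. The change was -1.57 ± 0.20 (SE, adjusted p = 0.000135) in shRNA cells and -1.86 ± 0.20 (SE, adjusted p = 3.59e-05) in control cells, 2.98-fold and 3.62-fold.

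Psph performs the last step of serine synthesis. It read 2.35, 2.24 and 2.30 in shRNA cells after 4-OHT, against 3.08, 3.09 and 3.10 before it, and 2.64, 2.13 and 2.14 in control cells after 4-OHT, against 3.17, 3.13 and 3.33 before it. Control replicate A after 4-OHT is the highest array after treatment but still below every array before it, and the change was -0.80 ± 0.12 (SE, adjusted p = 0.000496) in shRNA cells and -0.91 ± 0.12 (SE, adjusted p = 0.000178) in control cells. The 2 enzymes upstream of it did not pass: Psat1 differed by -0.20 (adjusted p = 0.26) in shRNA cells and -0.27 (adjusted p = 0.236) in control cells, on spots that were partly saturated, and Phgdh by -0.05 (adjusted p = 0.765) in shRNA cells and -0.05 (adjusted p = 0.744) in control cells. The 95% interval for Phgdh, -0.31 to 0.21 in shRNA cells and -0.31 to 0.20 in control cells, does not reach the change of Psph.

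Asns, asparagine synthetase, read 4.55, 4.45 and 4.61 in shRNA cells after 4-OHT, against 5.05, 5.24 and 5.20 before it, and 4.98, 4.65 and 4.51 in control cells after 4-OHT, against 5.35, 5.05 and 5.32 before it. Every array after 4-OHT lies below every array before it, though control replicate A after 4-OHT comes close. The change was -0.63 ± 0.12 (SE, adjusted p = 0.00237) in shRNA cells and -0.53 ± 0.12 (SE, adjusted p = 0.00611) in control cells. 1 of 3 shRNA arrays and 2 of 3 control arrays before 4-OHT had a saturated spot for this gene, where the true signal is higher than read. Within slide 1 the control change was -0.27, the value that a fit with slide as a term also gives (adjusted p = 0.18).

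In the mitochondrial folate pathway, Aldh1l2, which oxidises 10-formyltetrahydrofolate in mitochondria, read -5.13, -5.15 and -4.82 in shRNA cells after 4-OHT, against -0.92, -0.94 and -0.79 before it. In control cells it read -4.92, -4.73 and -5.21 after 4-OHT, against -1.41, -1.33 and -1.24 before it. It was well above background on all 6 arrays before 4-OHT and on 1 of 3 arrays of each vector after it. The change was -4.15 ± 0.13 (SE, adjusted p = 3.73e-09) in shRNA cells and -3.63 ± 0.13 (SE, adjusted p = 7.95e-09) in control cells, at least 17.3-fold and at least 12.1-fold lower when no array was set below its dimmest detected signal. Its probe lies on chromosome 10 at 83029335 to 83029394 (mm7, minus strand), and the other probe of the gene, not well above background after 4-OHT, was at least 6.66-fold lower in shRNA cells and at least 4.64-fold lower in control cells.

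Of the other enzymes of this pathway, Shmt2, which passes a one-carbon unit from serine to folate, read 3.43, 3.43 and 3.61 in shRNA cells after 4-OHT, against 3.93, 3.73 and 3.97 before it, and 3.36, 3.28 and 3.29 in control cells after 4-OHT, against 3.70 and 4.02 on the 2 arrays before it with a value. Mthfd2, the dehydrogenase that follows it, read 2.02, 1.98 and 2.06 in shRNA cells after 4-OHT, against 2.28, 2.21 and 2.41 before it, and 1.95, 1.82 and 1.78 in control cells after 4-OHT, against 2.24, 2.15 and 2.38 before it. Neither gene's groups overlap. Shmt2 changed by -0.39 ± 0.10 (SE, adjusted p = 0.0138) in shRNA cells and -0.55 ± 0.11 (SE, adjusted p = 0.00357) in control cells, and Mthfd2 by -0.28 ± 0.08 (SE, adjusted p = 0.0183) in shRNA cells and -0.41 ± 0.08 (SE, adjusted p = 0.0021) in control cells. In shRNA cells the Mthfd2 call was lost with quantile normalization (-0.24, adjusted p = 0.0864), with no filter on detection (-0.28, adjusted p = 0.0541), without shRNA replicate C before 4-OHT (-0.23, adjusted p = 0.0578) and without shRNA replicate B after it (-0.26, adjusted p = 0.0654). The Shmt2 call was lost there without shRNA replicate B after 4-OHT (-0.36, adjusted p = 0.052).

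Of the transporters, Slc7a11 imports cystine in exchange for glutamate. It read -4.13, -4.46 and -4.23 in shRNA cells after 4-OHT, against -3.70, -3.32 and -2.77 before it, and -5.73, -4.96 and -4.74 in control cells after 4-OHT, against -3.64, -3.38 and -3.14 before it. The shRNA arrays before 4-OHT spread over almost a log2 unit, with replicate C highest, and the groups stay apart in both vectors. The change was -1.01 ± 0.28 (SE, adjusted p = 0.0157) in shRNA cells and -1.75 ± 0.28 (SE, adjusted p = 0.000509) in control cells. The signal is dim, and control replicate A after 4-OHT was not well above background. Another probe, brighter before 4-OHT, was at least 4.91-fold lower in control cells, against 3.38-fold for the tested probe. In shRNA cells its groups overlap, and the only 1 of 3 arrays detected after 4-OHT read -3.28, against a mean of -3.18 before it. Its fold there, 7.08, against 2.01 for the tested probe, takes the undetected arrays below their dimmest detected signal. That fold is thus not comparable with the minimum in control cells. The shRNA call was lost without shRNA replicate C before 4-OHT (-0.76, adjusted p = 0.0546), without shRNA replicate B after it (-0.91, adjusted p = 0.0573) and with the normexp background correction (-0.64, adjusted p = 0.0595).

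Slc7a5 and Slc3a2 encode the light and heavy chain of the leucine transporter. Slc7a5 read 2.01, 2.00 and 2.14 in shRNA cells after 4-OHT, against 2.48, 2.44 and 2.63 before it, and 2.03, 1.96 and 1.88 in control cells after 4-OHT, against 2.70, 2.33 and 2.67 before it. Slc3a2 read 4.44, 4.47 and 4.56 in shRNA cells after 4-OHT, against 4.95, 4.92 and 5.06 before it, and 4.44, 4.39 and 4.38 in control cells after 4-OHT, against 4.87 and 5.09 on the 2 arrays before it with a value. Both chains were lower on every array after 4-OHT, with a change of -0.47 ± 0.10 (SE, adjusted p = 0.00455) in shRNA cells and -0.61 ± 0.10 (SE, adjusted p = 0.00077) in control cells for Slc7a5. For Slc3a2 the change was -0.48 ± 0.08 (SE, adjusted p = 0.000813) in shRNA cells and -0.58 ± 0.09 (SE, adjusted p = 0.000471) in control cells. Slc7a1, a carrier of arginine and lysine, differed by -0.14 (adjusted p = 0.464) in shRNA cells and 0.03 (adjusted p = 0.908) in control cells.

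In the ER class, in shRNA cells 4 of 10 tested ER genes passed as lower and none as higher, and in control cells 3 of 10 passed as lower and none as higher, against the same 21.8% and 23% of all genes. The median log2 change was -0.36 in shRNA cells and -0.18 in control cells. Saturated probes lie near the middle of both rankings, among them that of Pdia6 at -0.36 and -0.19. The medians are therefore no usable size of change for the class. Dnajb9, Xbp1 and Calr passed in both vectors, and Edem1 passed in shRNA cells. The abundant chaperones gave little to compare: the tested probes of Hsp90b1 and Pdia6 were saturated on all 12 arrays, and that of Hspa5 on 10 of 12.

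**Figure D3:**
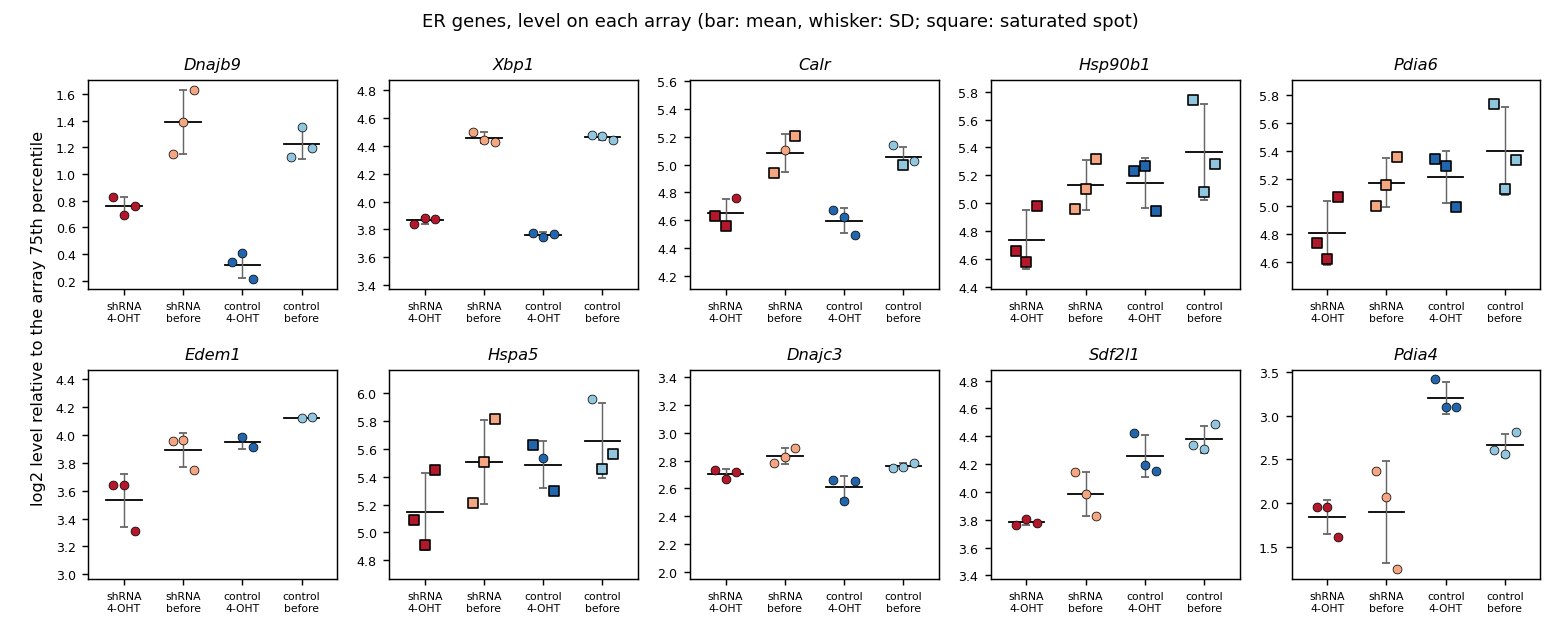
Level of the 10 tested ER genes on each array (log2 relative to the array's 75th percentile, with a y axis of its own per gene), drawn as for the ATF4 class. Dnajb9, Xbp1 and Calr are lower on every array after 4-OHT in both vectors, while the spots of the tested Hsp90b1 and Pdia6 probes are saturated throughout.

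Xbp1 encodes the transcription factor that IRE1 activates by splicing. It read 3.84, 3.89 and 3.88 in shRNA cells after 4-OHT, against 4.50, 4.44 and 4.43 before it, and 3.77, 3.75 and 3.77 in control cells after 4-OHT, against 4.48, 4.47 and 4.44 before it. The arrays of a group lie close together, those after 4-OHT under those before it, and the change was -0.59 ± 0.05 (SE, adjusted p = 6.63e-06) in shRNA cells and -0.70 ± 0.05 (SE, adjusted p = 1.58e-06) in control cells. The probe (chromosome 11, 5476970 to 5477029, mm7, plus strand) gives total Xbp1 signal. Dnajb9, an ER co-chaperone and a known XBP1 target, read 0.83, 0.69 and 0.76 in shRNA cells after 4-OHT, against 1.15, 1.39 and 1.63 before it, and 0.34, 0.41 and 0.21 in control cells after 4-OHT, against 1.13, 1.35 and 1.20 before it. Its change was -0.63 ± 0.12 (SE, adjusted p = 0.00153) in shRNA cells and -0.91 ± 0.12 (SE, adjusted p = 0.000113) in control cells, and its other 2 probes fell by 0.85 and 0.89 in shRNA cells and by 0.92 and 0.92 in control cells.

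Calr, a calcium-binding chaperone of glycoproteins, read 4.63, 4.56 and 4.76 in shRNA cells after 4-OHT, against 4.94, 5.10 and 5.21 before it, and 4.67, 4.62 and 4.50 in control cells after 4-OHT, against 5.14, 5.00 and 5.02 before it. The change was -0.43 ± 0.09 (SE, adjusted p = 0.00282) in shRNA cells and -0.45 ± 0.09 (SE, adjusted p = 0.00197) in control cells, with saturated spots on some arrays. A Calr probe with no saturated spot gave -0.40 (adjusted p = 0.0244) and -0.57 (adjusted p = 0.00384). Hspa5, the main ER chaperone BiP, read 5.09, 4.91 and 5.45 in shRNA cells after 4-OHT, against 5.21, 5.50 and 5.81 before it, and 5.63, 5.54 and 5.30 in control cells after 4-OHT, against 5.96, 5.46 and 5.56 before it. Its groups overlap, and it differed by -0.36 (adjusted p = 0.167) in shRNA cells and -0.17 (adjusted p = 0.517) in control cells, without a usable fold since most spots were at the scanner's ceiling.

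For Pdia6, a disulfide isomerase, a probe with no saturated spot gave -0.01 (adjusted p = 0.963) in shRNA cells and 0.18 (adjusted p = 0.317) in control cells. Its other 2 unsaturated probes, not tested, gave 0.28 and 0.10 in shRNA cells and 0.45 and 0.11 in control cells, and the groups of the first do not overlap in either vector. Pdia4, another isomerase, read 1.95, 1.96 and 1.61 in shRNA cells after 4-OHT, against 2.37, 2.07 and 1.24 before it, and 3.42, 3.10 and 3.10 in control cells after 4-OHT, against 2.61, 2.56 and 2.81 before it. The 3 control arrays after 4-OHT are all above those before it, while the shRNA groups overlap. It differed by -0.05 ± 0.24 (SE, adjusted p = 0.877) in shRNA cells and 0.55 ± 0.24 (SE, adjusted p = 0.101) in control cells. With slide as a term, both became higher calls, 0.60 (adjusted p = 0.0341) and 0.76 (adjusted p = 0.011).

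Of the genes for extraction and degradation, Edem1, which marks misfolded glycoproteins, read 3.64, 3.64 and 3.31 in shRNA cells after 4-OHT, against 3.96, 3.97 and 3.75 before it. The change was -0.36 ± 0.11 (SE, adjusted p = 0.0273), and in control cells, with 2 arrays a group, -0.18 ± 0.13 (SE, adjusted p = 0.336). The shRNA call was lost with slide as a fixed term (-0.22, adjusted p = 0.0726) or a random one (-0.30, adjusted p = 0.0903), with normexp (-0.39, adjusted p = 0.0531) and with no filter on detection (-0.36, adjusted p = 0.0726). It was also lost without shRNA replicate A before 4-OHT (-0.33, adjusted p = 0.0841), replicate B before it (-0.32, adjusted p = 0.091) or replicate C after it (-0.25, adjusted p = 0.0571). Herpud1, a membrane component of this machinery, changed by -0.52 ± 0.10 (SE, adjusted p = 0.00186) in shRNA cells and -0.62 ± 0.10 (SE, adjusted p = 0.000526) in control cells with marked spots kept. Sdf2l1, a partner of ER chaperones, differed by -0.20 (adjusted p = 0.129) in shRNA cells and -0.12 (adjusted p = 0.37) in control cells. Dnajc3, an ER co-chaperone, differed by -0.13 (adjusted p = 0.122) in shRNA cells and -0.15 (adjusted p = 0.068) in control cells. Creld2, a secreted ER protein read with marked spots kept, differed by -0.21 (adjusted p = 0.0573) in shRNA cells and -0.20 (adjusted p = 0.0648) in control cells, and Sel1l, listed as Sel1h, by 0.12 (adjusted p = 0.324) in shRNA cells and -0.24 (adjusted p = 0.0637) in control cells.

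**Figure D4:**
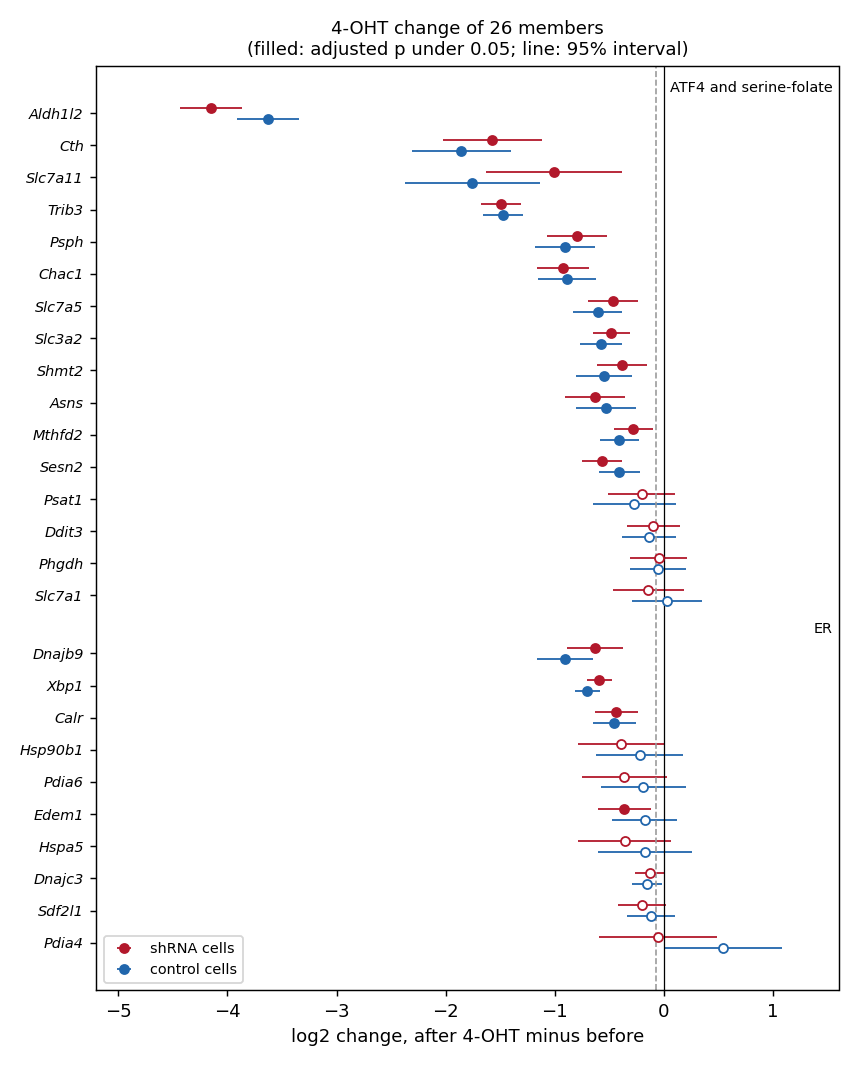
Log2 change after 4-OHT with its 95% interval for the 26 tested members in shRNA cells (red) and control cells (blue), filled where adjusted p is under 0.05. The dashed line is the median of all genes in control cells, and the 12 ATF4-class genes from Aldh1l2 to Sesn2 lie left of it in both vectors.

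All called members had groups of arrays that do not overlap, as had 51.5% of all genes in shRNA cells and 51% in control cells. Other probes of the called genes with a value had the same sign in 12 of 12 cases in shRNA cells and 10 of 10 in control cells, counting probes of Slc7a11 and Aldh1l2 that were not well above background after 4-OHT. Slide 3 holds only replicate C of the shRNA arrays before 4-OHT, and slide 1 only replicate A of the control arrays after it. The called members kept their sign within these slides, 16 of 16 in shRNA cells and 14 of 14 with a value in control cells. Sesn2 has no value within slide 1. Groups that do not overlap fix this sign in advance, so it is no check on slide. With slide as a fixed and as a random term, 15 of 16 calls remained in shRNA cells and 14 of 15 in control cells.

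Markers of the cell state moved with these genes. All 10 macrophage markers rose after 4-OHT in both vectors, with a summed signal (in units of the array's 75th percentile) of 31.4 to 38.6 in shRNA cells after 4-OHT, against 10.9 to 11.9 before it, and 40.0 to 47.7 in control cells after 4-OHT, against 12.1 to 14.0 before it. Of 9 tested progenitor and primary granule markers, 7 fell in both vectors, with sums of 92.5 to 123 in shRNA cells after 4-OHT, against 173 to 198 before it, and 92.6 to 129 in control cells after 4-OHT, against 181 to 211 before it. Of 14 proliferation genes, 1 was lower in shRNA cells (Mcm3) and 1 in control cells (Ccne1), and their sums overlap. Of the T-cell genes, Cd3d was never above background in 3 of 4 groups. Cd8a was not above background in any of the 4 groups, nor were Ms4a1, Pax5, Itga2b, Pf4, Gp9, Col1a1, Col3a1 and Dcn. Of the tested markers of other lineages, 2 of 3 erythroid genes (Klf1 and Epor) and the 1 megakaryocyte gene (Gp1bb) fell after 4-OHT in both vectors, and 1 of 2 T-cell genes fell in shRNA cells. The third erythroid gene (0.22 in shRNA cells and 0.14 in control cells), both T-cell genes in control cells, and the 1 B-cell and 1 fibroblast gene did not pass. The erythroid genes had sums of 0.173 to 0.219 in shRNA cells after 4-OHT, against 0.349 to 0.419 before it, and 0.173 to 0.226 in control cells after 4-OHT, against 0.331 to 0.434 before it. The part of the change of cell state in the results for the members was not tested, and fewer cells with a transcript cannot be told apart from less of it per cell.

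Genes of the same pathways outside the set were also tested, where 21.8% of all genes were lower and 16.5% higher in shRNA cells and 23% lower and 17.5% higher in control cells. Of 34 tested genes of amino-acid and integrated stress responses, 15 were lower and 3 higher in shRNA cells, and 19 lower and 2 higher in control cells, with medians of -0.29 and -0.30. Slc43a1, a leucine transporter, changed by -1.63 (adjusted p = 2.60e-05) in shRNA cells and -2.35 (adjusted p = 1.44e-06) in control cells. The stress cytokine Gdf15 changed by -1.76 (adjusted p = 2.20e-06) in shRNA cells and -1.73 (adjusted p = 2.20e-06) in control cells, and the stress factor Atf3 by -1.67 (adjusted p = 1.24e-06) in shRNA cells and -1.68 (adjusted p = 1.01e-06) in control cells. Fgf21, a stress hormone, was not well above background after 4-OHT, and was at least 1.47-fold lower in shRNA cells and at least 1.31-fold lower in control cells. Impact, an inhibitor of the amino-acid sensing kinase GCN2, rose by 0.96 (adjusted p = 3.34e-05) in shRNA cells and 1.25 (adjusted p = 4.15e-06) in control cells. Mthfd1, an enzyme of cytosolic folate metabolism, passed as higher in shRNA cells (0.35 (adjusted p = 0.0038)).

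Of 50 tested ER folding, translocation and degradation genes outside the set, 14 were lower and 5 higher in shRNA cells and 13 lower and 5 higher in control cells, with medians of -0.22 and -0.14, beside the same shares of all genes (21.8% and 16.5%, and 23% and 17.5%). Ero1a, the oxidase that drives disulfide formation, had a log2 change of -2.37 ± 0.07 (SE, adjusted p = 7.03e-09) in shRNA cells and -2.42 ± 0.07 (SE, adjusted p = 1.07e-08) in control cells, 5.19-fold and 5.35-fold lower. Fkbp11, a prolyl isomerase, followed with -1.04 (adjusted p = 3.34e-05) in shRNA cells and -1.19 (adjusted p = 1.10e-05) in control cells, and the transcription factor Creb3l2 with -0.78 (adjusted p = 9.31e-06) in shRNA cells and -0.85 (adjusted p = 4.55e-06) in control cells. Stt3a, a subunit of the glycosylation enzyme, was the next in shRNA cells (-0.54 (adjusted p = 0.0159)), and Ero1b in control cells (-0.61 (adjusted p = 0.0016)). The transcription factor Creb3 rose by 0.96 (adjusted p = 1.28e-06) in shRNA cells and 1.09 (adjusted p = 4.07e-07) in control cells, and the disulfide isomerase Txndc5 by 0.88 (adjusted p = 0.00155) in shRNA cells and 1.01 (adjusted p = 0.000563) in control cells. Wfs1, an ER membrane protein, rose by 1.03 (adjusted p = 1.29e-05) in shRNA cells and 0.86 (adjusted p = 4.50e-05) in control cells, and Mbtps2, a protease that cleaves ATF6, by 0.33 (adjusted p = 0.0354) in shRNA cells and 0.37 (adjusted p = 0.0203) in control cells.

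Before 4-OHT, none of the 26 members passed between shRNA and control cells, against 0.378% of all genes. At an unadjusted p under 0.05 there were 5 of 26 (Aldh1l2, Sesn2, Slc7a1, Pdia4 and Sdf2l1), as were 3362 of all 15061 genes. The lowest adjusted p was 0.0815, for Sdf2l1. Without shRNA replicate A there were 2 calls (Pdia4 and Sdf2l1), where 3.3% of all genes passed. Differences ranged from -0.77 for Pdia4 to 0.44 for Aldh1l2. The 95% interval of the difference was -0.14 to 0.23 for Trib3, -0.12 to 0.11 for Xbp1 and -0.49 to 0.74 for Slc7a11.

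After 4-OHT, 5 of 26 members passed between shRNA and control cells, 1 of 16 in the ATF4 class and 4 of 10 in the ER class, against 16.7% of all genes. Pdia4, Sdf2l1, Edem1 and Sesn2 were lower in shRNA cells, as were 8.82% of all genes, and Dnajb9 was higher, as were 7.85%. Pdia4, on the values above, differed by -1.37 ± 0.24 (SE, adjusted p = 0.013), 2.58-fold. Sdf2l1 read 3.76, 3.81 and 3.78 in shRNA cells, against 4.43, 4.20 and 4.15 in control cells, a difference of -0.47 ± 0.10 (SE, adjusted p = 0.0182). Sesn2 differed by -0.41 ± 0.09 (SE, adjusted p = 0.0236), Edem1 by -0.42 ± 0.12 (SE, adjusted p = 0.0469) and Dnajb9 by 0.44 ± 0.12 (SE, adjusted p = 0.033). The groups of these 5 genes do not overlap, as those of 38.6% of all genes do not. Cell-state markers differed in the same comparison: 3 of 10 macrophage markers were lower in shRNA cells, 3 of 9 progenitor and granule markers were higher, 5 of 14 proliferation genes were higher and 1 lower, and the 1 tested fibroblast gene was higher by 0.83. Their part in these results was not tested.

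None of these 5 calls remained when slide entered the fit, as a fixed or as a random term. With the fixed term Pdia4 was -0.28 (adjusted p = 0.863), Sdf2l1 -0.15 (adjusted p = 0.871) and Dnajb9 0.08 (adjusted p = 0.956). Leaving out 1 array left 1 to 6 calls: 1 without control replicate B or without shRNA replicate B after 4-OHT, 2 without shRNA replicate A or C after it, and 3 without control replicate A after it or shRNA replicate B before it. Over all 15061 genes the fixed term left 1 call and the random term left 0. Other probes also went against the first: of 5 further probes of Dnajb9, Edem1 and Sesn2, 4 had the opposite sign, with -0.03 and -0.31 for Dnajb9, 0.10 for one of the 2 of Edem1 and 0.38 for Sesn2. Probes with no saturated spot gave -0.56 (adjusted p = 0.024) for Pdia6 and 0.43 (adjusted p = 0.041) for Calr. Further unsaturated probes of Pdia6, not tested, gave -0.54 and, with the opposite sign, 0.07. Vector and slide cannot be told apart within a treatment.

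**Figure D5:**
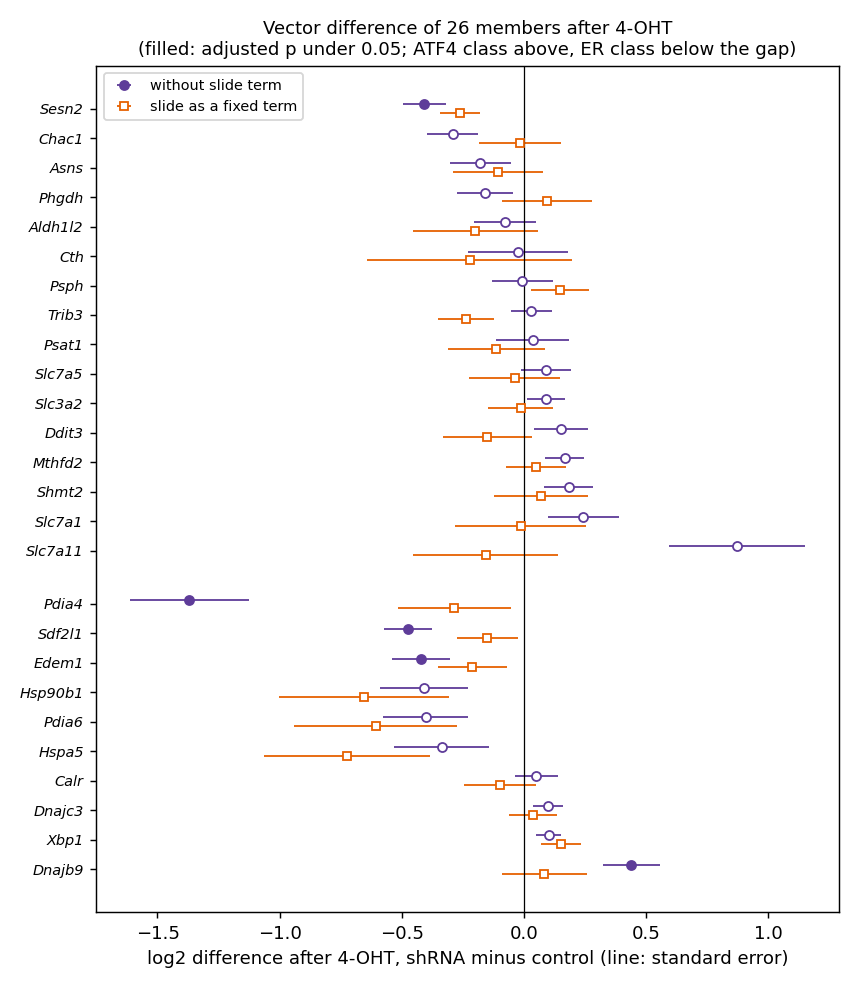
Log2 difference between shRNA and control cells after 4-OHT for the 26 tested members with its SE, without a slide term (circles) and with slide as a fixed term (squares), filled where adjusted p is under 0.05. The 5 filled circles have open squares beside them, and that of Pdia4 moves to -0.28.

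In the ATF4 class, Slc7a11 differed by 0.87 ± 0.28 (SE, adjusted p = 0.0565) between shRNA and control cells after 4-OHT, with dim signal and groups that do not overlap. With slide as a fixed term the difference was -0.16 (adjusted p = 0.95). It passed with quantile normalization (0.90, adjusted p = 0.0437) and with a replicate block (0.87, adjusted p = 0.0256). It also passed without control replicate C after 4-OHT, or without shRNA replicate A or C before it. Chac1, by -0.29 ± 0.11 (SE, adjusted p = 0.0877), and Asns, by -0.18 ± 0.12 (SE, adjusted p = 0.329), did not pass either. With normexp, Chac1 (-0.36, adjusted p = 0.0496) and Aldh1l2 (-0.69, adjusted p = 0.0165) passed as lower, against 7.93% of all genes. With quantile normalization, Psat1 passed as higher (0.33, adjusted p = 0.0252). With marked spots kept, Atf4 was higher in shRNA cells after 4-OHT by 0.34 ± 0.10 (SE, adjusted p = 0.0446) and Nupr1 was lower, with a difference of -0.65 ± 0.08 (SE, adjusted p = 0.00727), on spots of which 3 of 6 and 4 of 6 were marked. Sel1l was at the threshold, 0.31 ± 0.09 (SE, adjusted p = 0.05).

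The response to 4-OHT was set between the vectors by the interaction term, the change in shRNA cells minus the change in control cells. None of the 26 members passed, nor did any of the 15061 genes, of which 791 had an unadjusted p under 0.05. Among the members that was 1, Aldh1l2, at -0.52 ± 0.18 (SE, adjusted p = 0.896) with a 95% interval of -0.92 to -0.12. Its probe was well above background on only 1 of 3 arrays of each vector after 4-OHT. Both of its changes are therefore minima, and this interval does not bound the difference in response. Before 4-OHT the vectors differed by 0.44 for this gene. The interval of the interaction was -0.27 to 0.25 for Trib3, -0.05 to 0.27 for Xbp1 and -0.13 to 1.62 for Slc7a11. It is narrow for Trib3 and Xbp1 and wide for Slc7a11.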

How the data were processed

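RNA of 12 PUER cultures was hybridised to one-colour arrays (design 014868). Per the file headers, the authors read the scans with Agilent Feature Extraction 9.5.3.1 (9.5 per the submitters' processing notes), and the deposited values are linear Cy3 intensity, background-subtracted and detrended within the array, and not scaled across arrays. A deposited table of all samples repeats this intensity, differing by at most 0.497%. Flags for saturation, background and outliers are those of the scanner software.

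Outlier-marked and control spots were dropped and repeat spots of 1 probe averaged. Each array was divided by its own 75th percentile (an intensity of 1196 to 2583) before taking log2. Probes were named by transcript (22951), current symbol (6659) or older symbol (3109) through the mouse RefSeq gene table, and 8455 kept the file's name. Each gene was tested on its probe of highest mean among those well above background on 3 or more arrays, with a value on 2 or more per group. Where a group was below background, the fold is a minimum, computed from the dimmest detected signal of its arrays. Promoter windows and their coordinates come from RefSeq (GRCm38.p6), and probe positions (mm7) from the scanner output.

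Group means of all 12 arrays were fitted with limma 3.58.1 (R 4.3.3, with version 1.17.8 of data.table), with adjusted p by Benjamini-Hochberg over 15061 genes and a threshold of 0.05. The fit was tested on simulated data. The members, the lists of other pathway genes and the markers were chosen with earlier results of these data known. Levels per array are given for members past the threshold and for Atf4, Ddit3, Xbp1 and Hspa5 whatever their result, and up to 4 other pathway genes per list, comparison and direction are named by size of change, with some genes not reported here. The design text speaks of separate clones but does not tie clones to arrays, so p-values measure the spread between these arrays. The number of arrays limits the precision. The alternatives were normexp background correction (offset 50), quantile normalization, no filter, the mean of all probes of a gene (each probe centred on its group means first), slide as a fixed or random term, a replicate block, the deposited table and leaving out each array. Using the brightest probe with no saturated spot and keeping marked spots were added after seeing the data. Figures were drawn with Python 3.11.15, numpy, pandas and matplotlib 3.10.9.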

Additional observations from a re-analysis of the deposited data

How the results depend on the processing

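Across the 22 alternatives, 11 of 16 calls after 4-OHT in shRNA cells and 13 of 15 in control cells were kept under each alternative that gave them a value. Asns has no value with unsaturated probes only. The count of members lower in the ATF4 class ranged from 9 to 13 in shRNA cells and from 10 to 13 in control cells. Of all genes, 10% to 24.6% were lower in shRNA cells and 15.1% to 25.4% in control cells. No alternative gave an interaction call among the members. Between the vectors after 4-OHT, the 5 calls became 0 with slide as a fixed or as a random block and 1 with no filter on detection, and leaving out 1 array gave 1 to 6. Before 4-OHT, quantile normalization gave 1 call, and leaving out 1 array gave 0 to 2. Pdia4 in shRNA cells after 4-OHT turned to 0.60 with slide as a fixed block. Sesn2 between the vectors after 4-OHT turned to 0.15 (adjusted p = 0.4) with the mean of all probes and to 0.38 (adjusted p = 0.0441) with the unsaturated probe, since its probes differ in sign; elsewhere the cause was not tested.

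The Hnrnpa0 difference before 4-OHT was -1.38 (adjusted p = 0.114) with slide as a fixed block and -1.57 (adjusted p = 0.0943) as a random block, and -1.76 to -1.30 with 1 array left out, where the call was lost without control replicate B or C or shRNA replicate B. After 4-OHT it was -1.38 (adjusted p = 0.0897) and -1.81 (adjusted p = 0.0526) under those blocks, and -2.15 to -2.05 with 1 array left out. With a replicate block, 16 of 26 members passed after 4-OHT in shRNA cells, against 39.5% of all genes, and 15 in control cells, against 41.5%. Between the vectors 0 passed before 4-OHT, against 1.23% of all genes, and 6 after it, against 18.3%. For the interaction 0 members and 0 of all genes passed. Same-letter arrays deviated together with correlations of -0.0871 to 0.304, so the letters were not taken as pairs. Of 2512 genes called between the vectors after 4-OHT, 1183 were higher in shRNA cells, against 534 of 1729 with normexp and 598 of 1695 with quantile normalization. Saturated ER chaperone spots and dim spots of Slc7a11 and Aldh1l2 limit those values.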
